A study of Mus musculus with 12 samples.

Results

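The transcripts of 10 cytokines and IL-1 antagonists were followed in bone marrow-derived macrophages (BMMs) of mice with and without IGF2BP2. The genes were chosen by name, as Tnf, Il1a, Il1b, Il18, Il6, Il12b, Il27, Il10, the IL-1 receptor antagonist Il1rn and the decoy receptor Il1r2, out of 38887 genes in the expression tables. RNA-Seq was available for 3 WT and 3 IGF2BP2 KO mice, each with an untreated culture (M0) and one that received IL-4 at 20 ng/ml over 8 h (M2). The KO carried loxP sites around exons 4 and 5 of Igf2bp2 with Cre under control of the Lyz2 locus, so deletion depended on Lyz2 expression. WT animals were littermates without floxed alleles, of which some carried Cre and others did not. All cultures came from bone marrow of mice aged 3 to 4 months and were grown with 50 ng/ml M-CSF for 6 days. No culture received LPS, so the cytokine levels are those of macrophages without an inflammatory stimulus.

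TNF and the agonists IL-1α and IL-1β drive inflammation through receptors that activate NF-κB. Pro-IL-1β and pro-IL-18 are cleaved by caspase-1 in inflammasomes, whereas IL-1α is active in its uncleaved form. IL-1 is held in check by Il1rn, which occupies the signalling receptor without activating it, and by Il1r2, which captures IL-1 without a signalling domain. IL-6, IL-12 (whose p40 subunit is encoded by Il12b) and IL-27 shape lymphocyte responses, and IL-10 restrains the production of inflammatory cytokines. IL-4 acts on macrophages through STAT6 and induces the alternatively activated state called M2. IGF2BP2 binds mRNA, so that a transcript level may reflect synthesis as well as decay, which total RNA does not separate.

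Cytokine transcripts often carry AU-rich elements in the 3′UTR, at which decay factors such as tristetraprolin bind. These elements are shown because the deleted gene encodes an RNA-binding protein and because the members differ widely in how many they hold. In GENCODE M21 (GRCm38), a 3′UTR could be read for 9 of the 10 genes, not for Il1r2. A stretch of 30 bases is given for the 4 tested members with the most ATTTA per kilobase, with each ATTTA in capitals.
Tnf: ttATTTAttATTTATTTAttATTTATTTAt
Il27: gatATTTAtttcttggatATTTATTTAttt
Il1b: cttacctATTTATTTAtgtATTTAttgatt
Il10: ctctctccgaaatATTTAttacctctgata
The stretches lie in the 3′UTR of Tnf (chr17:35199678-35199707, minus strand), Il27 (chr7:126589087-126589116, minus strand), Il1b (chr2:129364802-129364831, minus strand) and Il10 (chr1:131024384-131024413, plus strand). The 3′UTR of Tnf held 8 ATTTA in 764 bases, or 10.5 per kilobase, against a median of 1.24 per kilobase over the fitted genes. Among genes with a 3′UTR of similar length, 0.252% had at least as many as Tnf, 0.0981% as many as Il27 (5 in 285 bases), 1.64% as many as Il10 (6 in 706 bases) and 2.68% as many as Il1b (4 in 459 bases). The longer element TTATTTATT occurred 5 times in Tnf and 2 times in Il27, in none of the other 7 members, and in 7.21% of the 11629 fitted genes with a 3′UTR. Il1rn was the member without any ATTTA, in a 3′UTR of 1306 bases. These matches describe the sequence and show no binding.

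Promoter windows of 300 bases (250 before to 50 after the start, RefSeq, GRCm38.p6) were found for 8 of the 10 genes, not for Il10 and Il27. The core promoter letters TATAAA and the patterns GGGNNNTTCC (NF-κB type) and TTCNNNNGAA (STAT6 type) were searched on both strands, and no match overlapped another. Matches are shown for genes whose transcripts changed with IL-4, and for Il6, in capitals.
Il1a, core promoter: tgaggaagacTATAAAaaggcagaga
Il1b, core promoter: tttttaggacTATAAAacaagggagg
Tnf, core promoter: ccccaagggcTATAAAggcggccgtc
Il1rn, STAT6 type: tgtgctcttcTTCCCAGGAAcaccatgaag
Il18, STAT6 type: tttgagacagTTCCCCAGAAtgcaaatagg
Il6, NF-κB type: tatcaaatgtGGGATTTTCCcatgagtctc
The core promoter letters began 32 bases before the start in Il1a (chr2:129309989-129310014, minus strand), 31 before it in Il1b (chr2:129371155-129371180, minus strand) and 29 before it in Tnf (chr17:35202021-35202046, minus strand), and 14.2% of the 27025 genes with a window had TATAAA in it. Il18 and the third window of Il1rn held these letters on the opposite strand. The STAT6-type match lay 46 bases before the start of Il18 (chr9:50554644-50554673, plus strand) and, in Il1rn (chr2:24345160-24345189, plus strand), 121 bases before the start in the second of 3 windows, and the third window holds the same match. Such a match was found in 6.99% of the genes with a window. The NF-κB-type match in Il6 (chr5:30013060-30013089, plus strand) began 44 bases before the start, Il1rn had one in each of its 3 windows (the same match in the second and the third), and 5.52% of genes had one.

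Each library held between 20011792 and 39632770 counts, and the WT M2 libraries (20011792 to 22744704) were shallower than the KO M2 libraries (27347077 to 39632770). Summed markers of macrophages lay between 5042 and 5704 CPM (counts scaled by TMM to a common library size) in all 12 libraries. Among marker genes of the IL-4 response with a mean above 1 CPM in M0, Arg1, Mrc1, Clec10a, Socs1 and Chil3 were higher in M2 in both genotypes. Mrc1, for example, had 262 CPM in WT M0 and 2532 CPM in WT M2. Markers below 1 CPM in M0 are not used for this check, since the filter could have fixed their direction. Igf2bp2 read 98 ± 20.7 CPM in WT M0 and 90.8 ± 5.53 CPM in KO M0, and 211 ± 28.7 CPM in WT M2 and 135 ± 9.54 CPM in KO M2 (mean ± SD, n = 3). The tables count reads per gene, so reads inside the floxed exons were not examined. By Western blot and qPCR, the study reported IGF2BP2 protein and mRNA as almost undetectable in its KO BMMs. Lyz2, into which Cre is inserted, read 8463 ± 1845 CPM in WT M0 and 26.8 ± 5.79 CPM in KO M0, so loss of Lyz2, presence of Cre and deletion of Igf2bp2 cannot be told apart here. In bulk RNA, fewer cells that express a gene and less RNA per cell cannot be told apart either.

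Tnf was the most abundant of the 10 transcripts in every group. Levels of different genes were compared as TPM, which takes gene length into account. Tnf made up 74.4% of the summed TPM of the 10 genes in untreated WT, 65.6% in untreated KO, 43.4% in WT with IL-4 and 50.2% in KO with IL-4. Il1rn was second in all groups, with 14.9%, 23.9%, 27.8% and 25.9% in the same order. In M0 the next places were held by Il1b, Il18 and Il10 at 6.44, 5.19 and 5.05 TPM in WT, whose ranges overlapped from neighbour to neighbour, and by Il18, Il10 and Il1b at 5.93, 3.03 and 2.54 TPM in KO, where only the ranges of Il10 and Il1b overlapped. In M2 the third place belonged to Il10, at 11.6 TPM in WT and 9.41 TPM in KO, with no overlap with Il1rn above or with the gene below. Il27, Il6, Il1r2 and Il12b stayed below 1.2 TPM in every library. The filter on low counts left 7 of the 10 genes for the tests, whereas Il6, Il1r2 and Il12b did not.

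**Figure D1:**
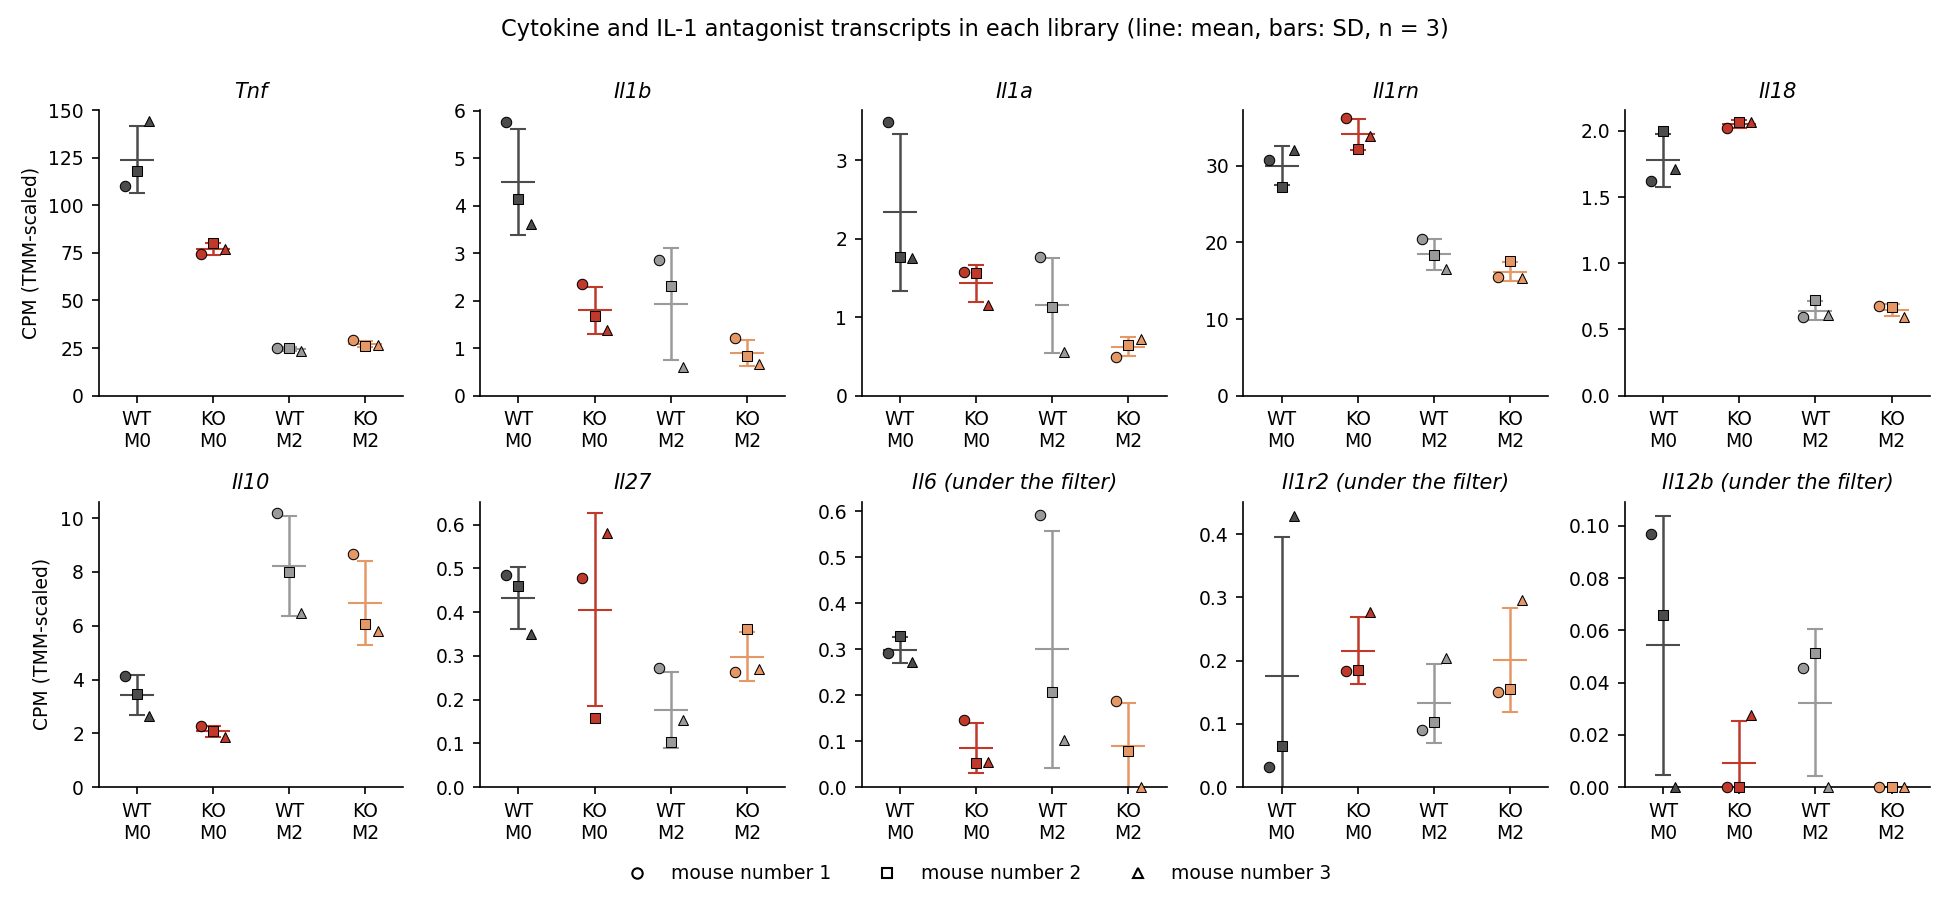
Normalised expression (CPM, linear axes starting at 0, a separate scale in each panel) of the 10 genes in the 12 libraries, grouped as WT M0, KO M0, WT M2 and KO M2. Points are single libraries with a symbol for each mouse number, lines are means and bars are SD (n = 3); Tnf drops from above 100 CPM in WT M0 to about 25 CPM in M2 of both genotypes, and Il10 is the gene whose M2 values all lie above its M0 values.

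The first comparison asked how IL-4 changed these genes in WT macrophages. Tnf, Il18, Il1rn, Il1b and Il1a fell and Il10 rose, and Il27 did not pass the test (edgeR quasi-likelihood F test, adjusted p under 0.05). Of the 7 genes tested, 5 were lower, against 25.1% of all 12846 genes fitted, and 1 was higher, against 24.9%. The median log2 fold change of the 7 was -1.21, and that of all genes -0.008. In KO macrophages, Tnf, Il18, Il1rn and Il1a fell and Il10 rose, so that 4 of 7 were lower, against 26.0% of all genes, and 1 was higher, against 26.8%, with a median of -1.07 beside 0.014 for all genes.

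The second comparison asked what the deletion changed. In M0, Tnf and Il1b were lower in KO and none of the 7 was higher, against 4.27% of all genes lower and 5.50% higher, and the median log2 fold change was -0.68 beside -0.001 for all genes. In M2, 0 of the 7 passed, in edgeR and in DESeq2 alike, against 1.46% lower and 1.21% higher among all genes. The smallest unadjusted edgeR p values there were 0.0236 for Il1b and 0.05 for Il1a. The median in M2 was -0.19, beside -0.001 for all genes. In the test of the difference between the IL-4 responses, 1 gene (Tnf) was higher and 0 were lower, against 1.11% and 2.13% of all genes, and the median was 0.20 beside 0.006. The comparisons share libraries (KO M0 and WT M0 enter 3 of the 5), so they are no separate evidence for a gene.

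**Figure D2:**
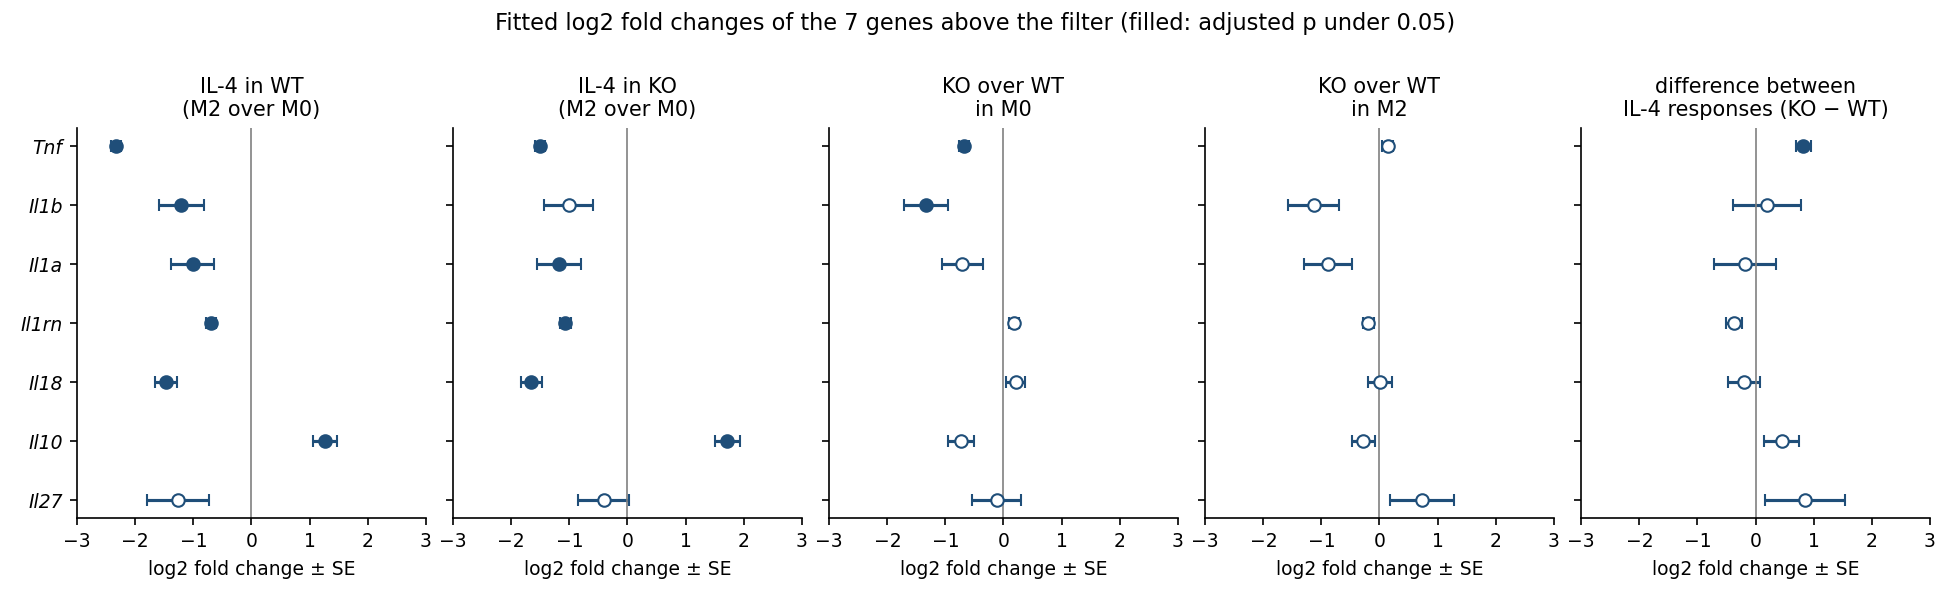
Fitted log2 fold changes (points) with SE (bars) of the 7 tested genes in 5 comparisons, all on 1 axis from -3 to 3, filled where the adjusted p was under 0.05. Tnf has the largest fall with IL-4 in WT (-2.33) and is the only filled point for the difference between the responses (0.82).

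Tnf, the prototype inflammatory cytokine, had 110, 118 and 144 CPM in the 3 WT M0 libraries and 74.2, 80.4 and 76.9 CPM in the 3 KO M0 libraries. All KO values lay below all WT values, and the log2 fold change was -0.68 (SE 0.08, edgeR adjusted p = 0.000595), or 1.6-fold lower in KO. With IL-4, Tnf had 25.1, 25.2 and 23.5 CPM in the WT cultures, against 29, 25.9 and 26.7 CPM in the KO cultures. Here every KO value lay above every WT value by a small margin, and the difference did not pass (0.14, SE 0.09, edgeR adjusted p = 0.414, interval -0.04 to 0.33).

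The fall of Tnf with IL-4 was 5.03-fold in WT (log2 fold change -2.33, SE 0.09, edgeR adjusted p = 5.48e-10) and 2.84-fold in KO (-1.51, SE 0.09, edgeR adjusted p = 1.96e-08). By mouse number, Tnf fell 4.39-, 4.66- and 6.13-fold in the WT cultures and 2.56-, 3.1- and 2.88-fold in the KO cultures, without overlap. The difference between the responses was 0.82 (SE 0.13, edgeR adjusted p = 0.00596), and it passed in all fits without 1 library and in all other alternatives (adjusted p from 6.42e-07 to 0.0205). The genotypes were apart in M0 and close in M2. Among 9743 genes with at least 5 CPM on average, the pattern of Tnf over the 12 libraries was most like that of Marcksl1 (Pearson r = 0.996 of log2 CPM), followed by a gene without a symbol (0.994). The 12 points share the 4 groups, so that a high r mainly tells that 2 genes have similar group means, which holds for all such values below.

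**Figure D3:**
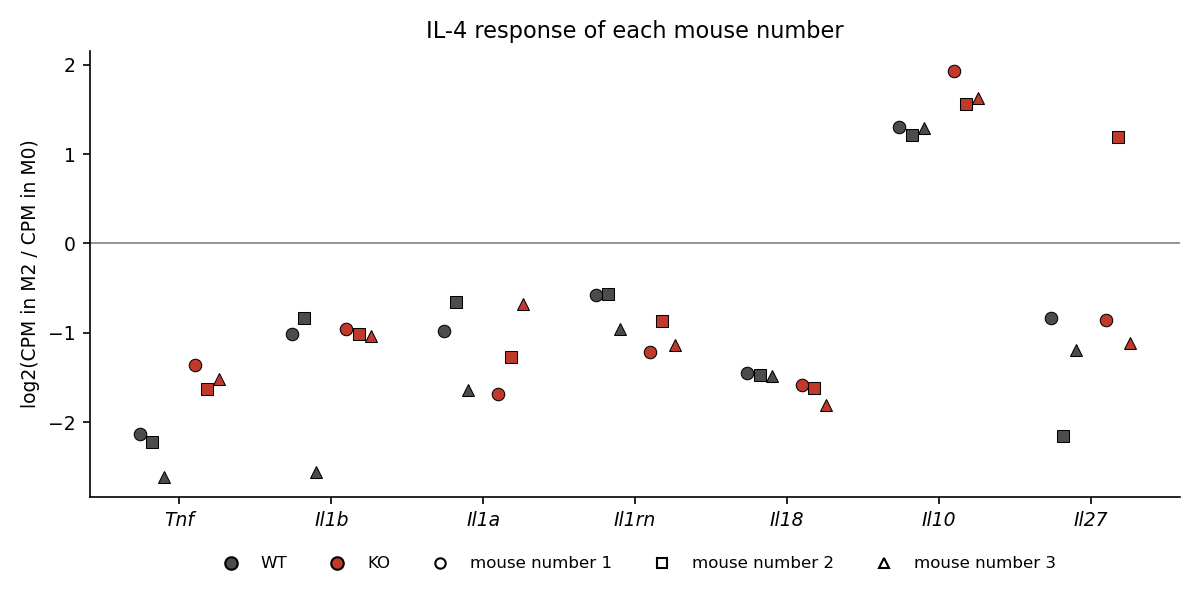
IL-4 response of each mouse number as log2 of CPM in M2 over CPM in M0 (y axis) for the 7 tested genes, WT in grey and KO in red, with a symbol for each number. The WT and KO points of Tnf do not overlap (-2.61 to -2.13 in WT, -1.63 to -1.36 in KO), all points of Il10 lie above 0, and the points of Il27 lie on both sides of 0 in KO.

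The IL-1 agonists were expressed at a low level. Il1b had 5.76, 4.14 and 3.62 CPM in WT M0 (178, 126 and 93 reads) and 2.35, 1.67 and 1.38 CPM in KO M0 (64, 63 and 50 reads). The groups did not overlap, with a log2 difference of -1.34 (SE 0.38, edgeR adjusted p = 0.0437), or 2.53-fold lower in KO. This call was lost in 5 of the 6 fits without 1 of these libraries, all but that without WT M0 replicate 3 (adjusted p from 0.0359 to 0.158), without WT M2 replicate 2, KO M2 replicate 2 or KO M2 replicate 3 (0.0573 to 0.0617), and in limma on TPM. With IL-4, Il1b had 2.86, 2.32 and 0.613 CPM in the WT cultures, against 1.21, 0.828 and 0.673 CPM in the KO cultures, where the third WT library lay below all KO libraries. The difference of -1.13 (SE 0.44) did not pass (edgeR adjusted p = 0.175), while it passed without WT M2 replicate 3 (adjusted p = 0.0328).

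Il1b fell with IL-4 by a log2 of 1.21 in WT (SE 0.39, edgeR adjusted p = 0.0211), and the call was lost without WT M0 replicate 1 (adjusted p = 0.0762) and with only the libraries of the comparison (0.0503). In KO the log2 fold change was -1.01 (SE 0.42, edgeR adjusted p = 0.0632). With the mouse as a block it passed (edgeR adjusted p = 0.0119), as it did with DESeq2, without the filter, with only the libraries of the comparison and without WT M2 replicate 3 (adjusted p from 0.0104 to 0.0379). By mouse number, Il1b was 1.95-, 2.02- and 2.05-fold lower in M2 in KO. In WT these ratios were 2.01, 1.78 and 5.9. The responses of the genotypes differed by 0.20 (SE 0.59, edgeR adjusted p = 0.892), with an interval from -0.94 to 1.35 that is too wide to exclude a change of the size seen for Tnf. The genes most like Il1b were Slc48a1 (r = 0.957) and Folr2 (r = 0.947).

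Il1a had 3.49, 1.77 and 1.75 CPM in WT M0 and 1.58, 1.56 and 1.16 CPM in KO M0, and 1.77, 1.13 and 0.562 CPM in WT M2 against 0.49, 0.647 and 0.727 CPM in KO M2. In M0 the KO values lay below all WT values, whereas in M2 the third WT library lay among the KO libraries. Neither genotype difference passed, at -0.71 (SE 0.35) for M0, with an edgeR adjusted p of 0.221, and -0.89 (SE 0.41) for M2, with an edgeR adjusted p of 0.246. IL-4 lowered Il1a by a log2 difference of -1.01 in WT (SE 0.37, edgeR adjusted p = 0.0386) and -1.18 in KO (SE 0.38, edgeR adjusted p = 0.0201). The call in WT was lost without WT M0 replicate 1, WT M2 replicate 2, WT M2 replicate 3, KO M0 replicate 1 or KO M0 replicate 2 (adjusted p from 0.0509 to 0.199) and with only the libraries of the comparison (0.0919), and that in KO without KO M0 replicate 1, KO M0 replicate 2 or KO M2 replicate 1 (up to 0.0651). Wdr33 (r = 0.956) and Zscan29 (r = 0.931) had the most similar patterns.

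Neutrophils are a rich source of IL-1β, and their markers were examined beside these values. Of 12 neutrophil markers, Ly6g was at 0 in all 12 libraries and 6 were below 1 CPM throughout, and the summed level was 41.9 to 58.4 CPM in WT M0 and 48.7 to 61 CPM in KO M0. Within the list, 7 could be tested in M0, where 1 (Mmp8) was higher and 3 (S100a9, Ltf and Ngp) were lower in KO, against 5.50% and 4.27% of all genes. Mmp8, the most abundant of the tested markers, had 22.2 ± 4.43 CPM in WT M0 and 41.7 ± 5.95 CPM in KO M0 (0.91, SE 0.15, edgeR adjusted p = 0.00308). S100a9 had 2.65 to 5.75 CPM in WT M0 and 1.3 to 2.13 CPM in KO M0, Ltf 2.61 to 7.72 against 1.13 to 1.58 CPM, and Ngp 2.61 to 7.16 against 1.43 to 1.51 CPM. The summed level of 6 stromal markers was 29.8 to 53.3 CPM in WT M0 and 7.94 to 30 CPM in KO M0, none was at 0 throughout, and 0 of the 4 tested passed. With IL-4 in WT, 2 of the 7 neutrophil markers were lower, Ngp (-1.28, SE 0.42, edgeR adjusted p = 0.023) and S100a9 (-0.75, SE 0.29, edgeR adjusted p = 0.0485), and 2 were higher, Csf3r and Cxcr2, against 25.1% and 24.9% of all genes. In KO 0 were lower and the same 2 were higher, against 26.0% and 26.8%. Of these 2, Cxcr2 had 0.0674 CPM in WT M0 and 0.104 CPM in KO M0, near or below the floor of 3 counts per library (0.081 to 0.12 CPM). It passed the filter only through M2 and had to differ, so only the rise of Csf3r is read. The part of neutrophils or stromal cells in the values of Il1b and Il1a was not tested, for the deletion or for IL-4.

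Il1rn, the antagonist, far exceeded the agonists. It had 30.7, 27.2 and 32.1 CPM in WT M0, 36.2, 32.2 and 33.9 CPM in KO M0, 20.5, 18.3 and 16.5 CPM in WT M2 and 15.5, 17.6 and 15.4 CPM in KO M2. In M0 the KO values were at or above the WT values with hardly any gap, and in M2 the ranges overlapped. IL-4 lowered Il1rn by a log2 difference of -0.70 in WT (SE 0.09, edgeR adjusted p = 3.94e-05) and -1.07 in KO (SE 0.09, edgeR adjusted p = 5.15e-07), and these calls held in every alternative. KO and WT differed by 0.18 without IL-4 (SE 0.09, edgeR adjusted p = 0.205) and by -0.19 with it (SE 0.09, edgeR adjusted p = 0.278). The difference between the responses, -0.37 (SE 0.13), had an edgeR adjusted p of 0.143, with an interval from -0.62 to -0.12 before adjustment. Lyn and Oas2 (both r = 0.980) were most like Il1rn.

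The balance of antagonist and agonists was expressed as the ratio of Il1rn to the sum of Il1a and Il1b in TPM. In WT M0 it was 2.58, 3.4 and 4.52, and in KO M0 it was 7.08, 8.24 and 10.4. The M0 groups did not overlap, with means of 3.5 ± 0.972 and 8.57 ± 1.68 (SD, n = 3, exact permutation test, two-sided p = 0.1, the smallest that 3 against 3 allows, 0.267 after Benjamini-Hochberg adjustment over the 8 ratio comparisons). In WT M2 it was 3.26, 4.7 and 11.2, and in KO M2 6.81, 7.38 and 9.49, so the third WT library exceeded all KO libraries (exact permutation test, two-sided p = 0.5, adjusted 0.667). For the change with IL-4, the exact permutation test over libraries gave p = 0.4 in WT and 0.6 in KO. By mouse number, however, the TPM ratio was higher with IL-4 in 3 of 3 WT pairs and lower in 3 of 3 KO pairs. The exact permutation test over pairs gave a two-sided p = 0.25 in each, the smallest that 3 pairs allow. The direction in KO number 2 depended on the unit. In CPM, Il1rn fell 1.82-fold there, less than Il1a (2.42-fold) and Il1b (2.02-fold), so the CPM ratio rose. Il1b in KO M2 replicate 2 had 0.828 CPM but 1.78 TPM, against 1.21 CPM and 1.54 TPM in replicate 1.

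**Figure D4:**
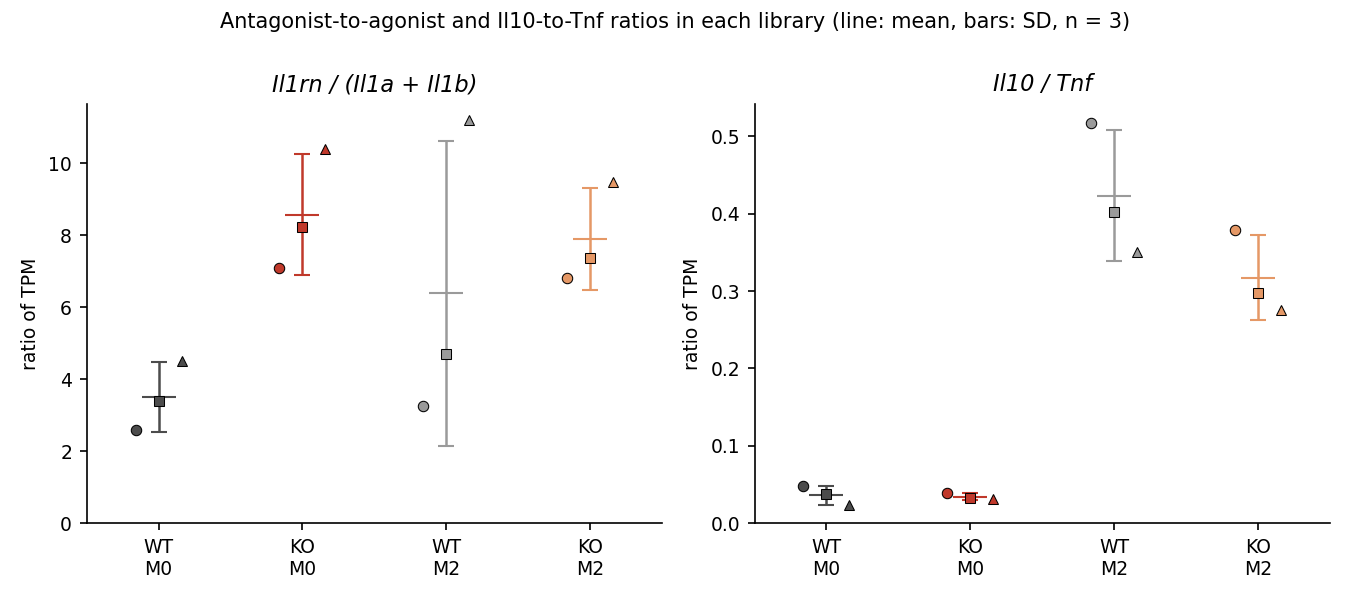
Ratios of TPM (y axes, linear from 0) in each library, Il1rn over the sum of Il1a and Il1b on the left and Il10 over Tnf on the right, with points for libraries, lines for means and bars for SD (n = 3). The left ratio separates WT and KO in M0 (2.58 to 4.52 against 7.08 to 10.4) but not in M2, and the right ratio separates M0 (at most 0.0477) from M2 (at least 0.276).

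The decoy receptor Il1r2 was barely detected. It had 1, 2 and 11 reads in WT M0, 5, 7 and 10 in KO M0, and with IL-4 2, 2 and 4 in WT M2 and 4, 6 and 11 in KO M2. The third WT M0 library alone held 11 of the 14 reads of its group. In edgeR without the filter, none of the 5 comparisons passed for Il1r2 (adjusted p from 0.751 to 1).

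Receptor genes of the IL-1 family mostly rose with IL-4. Of 8 genes for IL-1 and IL-18 receptors and their binding proteins, all tested, 6 rose with IL-4 in WT and 6 in KO, against 24.9% and 26.8% of all genes (median log2 fold change 2.30 and 2.41). Among them, Il18r1 was at 0 in all M0 libraries and at 0.385 CPM in WT M2 and 0.301 CPM in KO M2, so it passed the filter only through M2 and had to differ. With Il18r1 at the bound set by a floor of 3 counts per M0 library, the medians were 1.90 and 1.92. Sigirr, an inhibitory receptor, fell in WT (-0.66, SE 0.23, edgeR adjusted p = 0.0309). Il1rl1, the IL-33 receptor, went from 2.41 ± 1.27 to 121 ± 37.8 CPM in WT and from 3.02 ± 0.586 to 106 ± 10.2 CPM in KO. Il1rap, the shared accessory chain, went from 21.6 ± 1.39 to 83.8 ± 14.8 CPM in WT (edgeR adjusted p = 2.49e-08). Il1r1, the signalling receptor for the agonists, went from 1.02 ± 0.396 to 6.49 ± 0.544 CPM in WT and from 1.05 ± 0.451 to 7.75 ± 1.07 CPM in KO. None of the 8 passed between the genotypes, where 5.50% of all genes were higher and 4.27% lower in M0 and 1.21% and 1.46% in M2, so that 0 of 8 is near the background. The only other IL-1 family ligand that could be tested of the 6 listed, Il36g, had 0.925 ± 0.283 CPM in WT M0 and 0.0475 ± 0.0456 CPM in WT M2. Its M2 mean lay below the floor of 3 counts per library (0.132 to 0.15 CPM in WT M2) and it passed the filter only through M0, so no change is read from it.

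Il18, which primes lymphocytes to make interferon-γ, was low but even between libraries. It had 1.62, 2 and 1.71 CPM in WT M0, 2.02, 2.07 and 2.07 CPM in KO M0, 0.591, 0.722 and 0.613 CPM in WT M2 and 0.678, 0.673 and 0.592 CPM in KO M2. All KO M0 values lay just above the WT M0 values, the M2 ranges overlapped, and M0 and M2 were far apart in both genotypes. IL-4 lowered Il18 by a log2 difference of -1.47 in WT (SE 0.19, edgeR adjusted p = 3.82e-05) and -1.66 in KO (SE 0.18, edgeR adjusted p = 4.96e-06). By mouse number the fall was 2.74-, 2.78- and 2.79-fold in WT and 2.98-, 3.08- and 3.5-fold in KO. These groups did not overlap, but the difference between the responses did not pass (-0.20, SE 0.27, edgeR adjusted p = 0.801). The genotypes differed by 0.21 in M0 (SE 0.16, edgeR adjusted p = 0.464, interval -0.11 to 0.53) and by 0.01 in M2 (SE 0.21, interval -0.40 to 0.42). Gsr, the glutathione reductase (r = 0.992), and Fcrl1 (r = 0.991) were most like Il18.

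Among 11 genes of the inflammasome and of pro-IL-1β and pro-IL-18 processing, 6 fell and 2 rose with IL-4 in WT, against 25.1% and 24.9% of all genes, and 7 fell and 1 rose in KO, against 26.0% and 26.8%. Nlrp3, the sensor of the best studied inflammasome, fell from 123 ± 6.94 to 24.9 ± 1.36 CPM in WT and from 80.3 ± 4.18 to 27.6 ± 2.91 CPM in KO. In M0 it was lower in KO (-0.62, SE 0.07, edgeR adjusted p = 0.000477), as was Casp4 (-0.43, SE 0.09, edgeR adjusted p = 0.0103), the sensor of cytosolic LPS, and the other 9 did not pass (4.27% of all genes were lower). For Nlrp3 the IL-4 responses also differed (0.77, SE 0.11, edgeR adjusted p = 0.0041), as the only one of the 11, against 1.11% of all genes higher and 2.13% lower. Casp1, the protease that cleaves both precursors, had 82.4 ± 2.3 CPM in WT M0 and 88.7 ± 3.05 CPM in KO M0.

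Il10 was the only member that rose with IL-4. It had 4.14, 3.45 and 2.65 CPM in WT M0 and 10.2, 7.99 and 6.49 CPM in WT M2, a log2 difference of 1.27 (SE 0.21, edgeR adjusted p = 0.000265). In KO it went from 2.28, 2.07 and 1.88 CPM to 8.66, 6.08 and 5.81 CPM, a log2 difference of 1.72 (SE 0.22, edgeR adjusted p = 2.27e-05). M0 and M2 did not overlap in either genotype, and both calls held in every alternative. By mouse number Il10 rose 2.47-, 2.32- and 2.45-fold in WT and 3.8-, 2.94- and 3.09-fold in KO, but the difference between the responses, 0.45 (SE 0.30), did not pass (edgeR adjusted p = 0.47).

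In M0 all KO values of Il10 lay below all WT values, by a log2 difference of -0.73 (SE 0.23, edgeR adjusted p = 0.0607). DESeq2 gave an adjusted p of 0.0269, and the alternatives ranged from 0.0068 to 0.183. In M2 the ranges overlapped, and the log2 fold change was -0.28 (SE 0.20, edgeR adjusted p = 0.467, interval -0.67 to 0.11). Polr3e (r = 0.988) and Rgs16 (r = 0.983) had the most similar patterns. Of 9 receptor chains of the member cytokines, 4 rose and 4 fell with IL-4 in each genotype, against 24.9% and 25.1% of all genes in WT and 26.8% and 26.0% in KO. Among those of IL-10, Il10ra fell with IL-4 in WT, from 51.1 ± 1.6 to 23.6 ± 1.24 CPM (edgeR adjusted p = 3.6e-09), and Il10rb rose from 233 ± 8.01 to 380 ± 26.4 CPM (edgeR adjusted p = 2.47e-07). In M2, Il10ra was higher in KO (0.26, SE 0.05, edgeR adjusted p = 0.0327).

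Set against Tnf, Il10 had a TPM ratio of 0.0477, 0.0373 and 0.0234 in WT M0 and 0.0389, 0.0326 and 0.031 in KO M0. With IL-4 the ratio was 0.517, 0.402 and 0.351 in WT and 0.379, 0.297 and 0.276 in KO. M0 and M2 were apart in both genotypes (exact permutation test, two-sided p = 0.1 in each, the smallest possible, adjusted 0.267). The means of WT and KO were 0.0361 ± 0.0122 and 0.0342 ± 0.00414 in M0 (exact permutation p = 1) and 0.423 ± 0.0851 and 0.317 ± 0.0546 in M2 (exact permutation p = 0.2, SD, n = 3).

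Within the groups, the values of Il10 and Il1b were related. After subtraction of the group means, the deviations over the 12 libraries correlated with r = 0.82 for Il1b and Il10, 0.75 for Il1a and Il1b and 0.59 for Il1a and Il10. Il1rn correlated with Il1a at 0.58 and with Il1b at 0.56, and the other pairs lay between -0.40 and 0.44. In KO M2, Il1a ran opposite to Il1b and Il10, as mouse number 1 was lowest for Il1a and highest for Il1b and Il10. In CPM, Il1b and Il10 were highest in number 1 and lowest in number 3 in all 4 groups, and Il1a was highest in number 1 and lowest in number 3 in all but KO M2. The order thus followed the library number in both genotypes, although the numbers did not pair the genotypes over all genes. These values are a description, as M0 and M2 libraries of a genotype share their numbers and are not independent.

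The remaining members bordered on the detection limit. Il6 had 9, 10 and 7 reads in WT M0, 4, 2 and 2 in KO M0, and with IL-4 13, 4 and 2 in WT M2 and 5, 3 and 0 in KO M2. The M0 groups did not overlap (26 reads against 8 in all), whereas the M2 groups did. Fitted without the filter, neither the value of -1.82 for M0 (SE 0.77, edgeR adjusted p = 0.204) nor that of -1.86 for M2 (SE 0.79, edgeR adjusted p = 0.276) passed. Il6 was close to 0 for IL-4 in both genotypes (0.03 in WT, SE 0.68, and -0.01 in KO, SE 0.84), with errors that would hide a change of the size seen for Il1b. A library with 0 reads allows up to 3 reads by counting error alone.

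Il27, the p28 subunit of IL-27, had 15, 14 and 9 reads in WT M0, 13, 6 and 21 in KO M0, and with IL-4 6, 2 and 3 in WT M2 and 7, 14 and 10 in KO M2. The WT groups did not overlap, and the log2 fold change with IL-4 was -1.26 (SE 0.53, edgeR adjusted p = 0.0656), which passed with limma on TPM and without KO M0 replicate 2 (adjusted p = 0.0247). Il27 passed the filter through its M0 libraries, and its WT M2 reads lay near the floor of 3 counts, so no change is read from this. In KO the log2 fold change with IL-4 was -0.41 (SE 0.44, edgeR adjusted p = 0.464), with 1 of 3 mouse numbers rising. KO against WT gave -0.12 (SE 0.42, edgeR adjusted p = 0.899) without IL-4 and 0.73 (SE 0.55, edgeR adjusted p = 0.483) with it. Entpd1 (r = 0.850) and Lztr1 (r = 0.817) were most like it, less closely than for the other members. Of 8 partner subunits and related cytokines of the IL-6 and IL-12 family, 3 could be tested. None of these 3 passed between the genotypes, near the background of all genes (5.50% higher and 4.27% lower in M0, 1.21% and 1.46% in M2). Among them, the IL-27 subunit Ebi3 was far more abundant, at 33.2 ± 3.53 CPM in WT M0, and fell with IL-4 in WT (-0.43, SE 0.09, edgeR adjusted p = 0.00157) and in KO (-0.23, SE 0.09, edgeR adjusted p = 0.0463). Il12b was found with 3, 2 and 0 reads in WT M0, 1, 1 and 0 in WT M2, 0, 0 and 1 in KO M0 and none in KO M2. At these counts no fold is given, and none of its comparisons passed in edgeR without the filter (adjusted p from 0.485 to 0.894).

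Genes of the pathway upstream and downstream of Tnf were then examined. Of 16 genes for NF-κB subunits and their inhibitors, 9 were lower and 0 higher in KO M0, against 4.27% and 5.50% of all genes, with a median log2 fold change of -0.23 beside -0.001 for all genes. Nfkb2, the p100 subunit, had 175 ± 8.1 CPM in WT M0 and 104 ± 5.3 CPM in KO M0 (-0.76, SE 0.07, edgeR adjusted p = 0.000151), and Relb, its partner, 52.7 ± 3.13 and 37.8 ± 1.31 CPM (-0.48, SE 0.07, edgeR adjusted p = 0.00189). Among the inhibitors, Tnip1 (-0.54, SE 0.05, edgeR adjusted p = 0.000177) and Tnfaip3, which encodes the feedback inhibitor A20 (-0.48, SE 0.06, edgeR adjusted p = 0.000707), were lower too. The lower genes thus included subunits as well as inhibitors. In M2, 0 were lower and 2 were higher in KO (1.46% and 1.21% of all genes), Nfkbib (0.28, SE 0.06, edgeR adjusted p = 0.0403) and Tnip1 (0.24, SE 0.06, edgeR adjusted p = 0.0431).

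With IL-4, 10 of the 16 fell and 3 rose in WT, against 25.1% and 24.9% of all genes, and 8 fell and 3 rose in KO, against 26.0% and 26.8%. The responses differed for 8, all with a higher value in KO (1.11% of all genes), among them Tnip1 (0.79), Nfkb2 (0.79) and Relb (0.68, edgeR adjusted p = 0.00596). Of 11 adaptors of the IL-1 receptor and of Toll-like receptors, none passed between the genotypes in M0 or M2 (at most 5.50% of all genes in a direction), 2 rose and 3 fell with IL-4 in WT (24.9% and 25.1% of all genes), and Irak3, an inhibitory kinase, fell with IL-4 in WT from 32.7 ± 3.11 to 12.2 ± 0.452 CPM. The sheddase of TNF, Adam17, fell with IL-4 in WT from 370 ± 9.82 to 271 ± 3.26 CPM and its partner Rhbdf2 rose from 62.4 ± 3.26 to 106 ± 0.965 CPM, and neither passed between the genotypes. Of the 9 receptor chains, 2 were higher and 1 was lower in KO M0 (5.50% and 4.27% of all genes), among them the TNF receptors, where Tnfrsf1a was higher in KO (0.22, SE 0.05, edgeR adjusted p = 0.0169) and Tnfrsf1b lower (-0.27, SE 0.07, edgeR adjusted p = 0.0342).

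**Figure D5:**
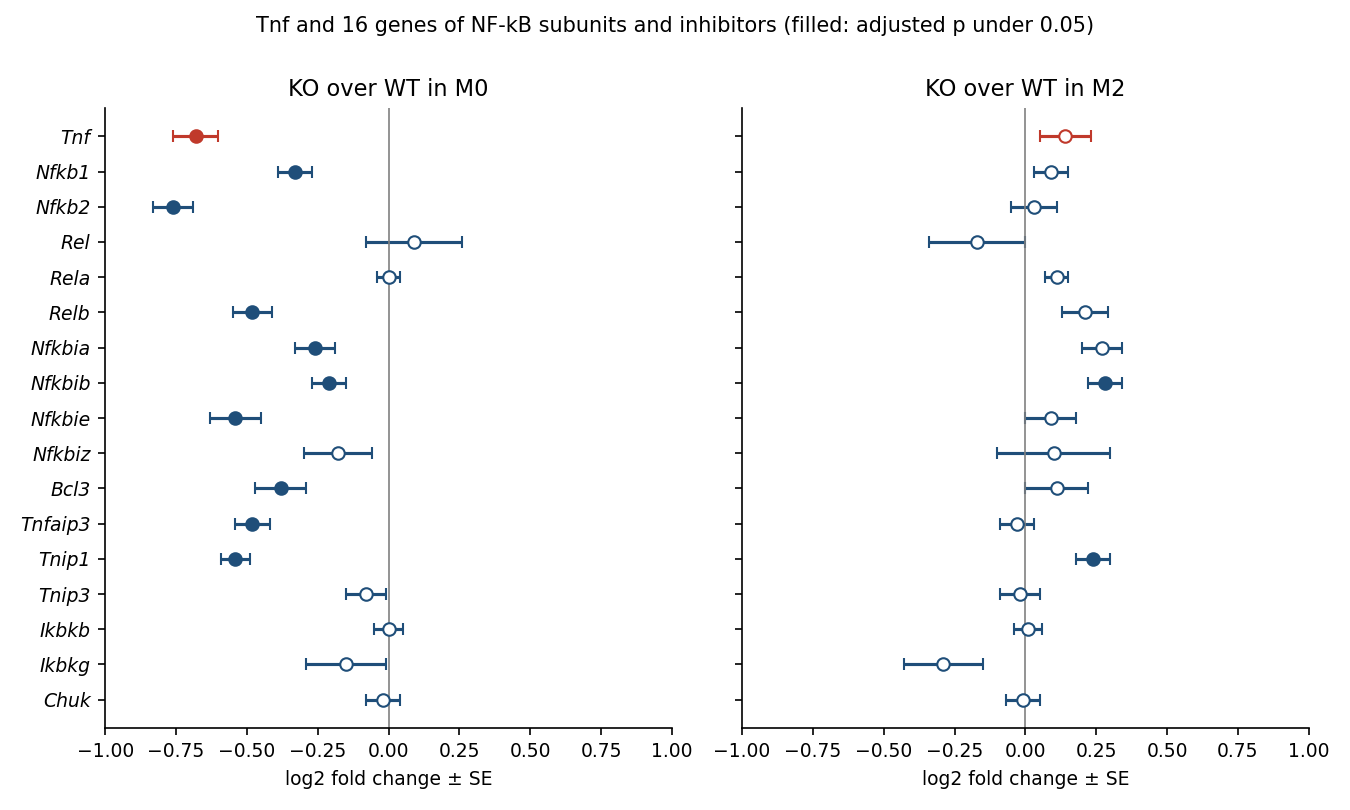
Log2 fold change of KO over WT (points) with SE (bars) in M0 (left) and M2 (right) for Tnf in red and 16 genes of NF-κB subunits and inhibitors in blue, on the same axis from -1 to 1, filled where the adjusted p was under 0.05. In M0, Tnf and 9 of the 16 are filled on the negative side, and in M2 the 2 filled points lie on the positive side.

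Not all genes known from inflamed macrophages followed Tnf. Of 13 testable genes among 16 LPS-type effectors, 6 fell and 3 rose with IL-4 in WT (25.1% and 24.9% of all genes). Ptgs2, which encodes cyclooxygenase-2, rose with IL-4 from 11.4 ± 0.93 to 25.7 ± 3.96 CPM in WT and from 6.3 ± 0.531 to 25.5 ± 2.02 CPM in KO, and the costimulatory gene Cd40 rose with IL-4 as well. In M0 both were lower in KO (Ptgs2 -0.85, SE 0.12, edgeR adjusted p = 0.00143, and Cd40 -0.42, SE 0.09, edgeR adjusted p = 0.015). The scavenger receptor gene Marco was higher in KO, at 104 ± 39 against 33.1 ± 4.18 CPM (1.66, SE 0.30, edgeR adjusted p = 0.00585), and the other 10 did not pass (5.50% of all genes were higher and 4.27% lower). In M2, 3 of the 13 were higher and 0 lower in KO (1.21% and 1.46% of all genes), namely Cd40 (0.46, SE 0.08, edgeR adjusted p = 0.0156), Marco (1.39, SE 0.32, edgeR adjusted p = 0.0427) and Cd86 (0.66, SE 0.16, edgeR adjusted p = 0.0487). Cd40 thus lay below WT in M0 and above WT in M2, and its IL-4 responses differed by 0.89 (SE 0.12, edgeR adjusted p = 0.00405).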

How the data were processed

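BMM libraries were made by the authors with poly(A) selection and a directional kit and sequenced as single reads, which were aligned to GRCm38/mm10 with the Grape-nf pipeline after FastQC 0.11.2. The counting tool and annotation release were not given in the sources used here. Per library, the authors deposited expected counts for 38887 genes, with shared reads split between genes and a posterior SD, and TPM. The posterior SD was 0 for all 120 values of the 10 genes, so their counts were unambiguous. Tables with the authors' DESeq2 1.40.2 comparisons (mean normalized signal, fold changes and p-values) were deposited as well, of which 1 served for gene symbols only.

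Expected counts were rounded, filtered with filterByExpr by group (12846 genes), TMM-scaled and fitted with edgeR 4.0.16 (quasi-likelihood F test, 1 coefficient per group, all 12 libraries, Benjamini-Hochberg over all genes, call at adjusted p under 0.05, R 4.3.3). SE was the fold change divided by the root of F, and intervals are normal ones from the SE, before adjustment. Total counts of 20011792 to 39632770 limit the precision, and floors cover counting error only. Groups came from the sample labels. Library numbers paired M0 and M2 within a genotype (correlations of deviations 0.331, 0.103 and 0.364 in WT, 0.166, 0.16 and 0.209 in KO) but not the genotypes (-0.0684 to 0.0403), and the study describes 3 mice per group. The fit was tested on simulated data. Alternatives were DESeq2 1.42.0, RLE factors, no filter, 1 CPM in 3 libraries, a replicate block, limma 3.58.1 on log2 TPM with a pseudocount of 1 or 0.1, only the libraries of a comparison, and leaving out each library.

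The 10 genes, the pathway and marker lists and the rule for named genes (from each list the members called, at most the 4 with the smallest adjusted p, and the 2 genes most like each member) were chosen with earlier results of these data known. Casp1, Il1r1, Rhbdf2, Il10rb, Tnfrsf1a and Tnfrsf1b among others are named for their role.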

Additional observations from a re-analysis of the deposited data

Results flagged for a closer look

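The IL-4 response of Tnf differed between the genotypes, as the log2 fold change was -2.33 in WT and -1.51 in KO and the test of the difference gave 0.82 (SE 0.13, edgeR adjusted p = 0.00596), with the smaller fall in 3 of 3 KO mouse numbers. The M0 levels were 124 ± 17.7 and 77.2 ± 3.07 CPM and the M2 levels 24.6 ± 0.971 and 27.2 ± 1.57 CPM (WT and KO, mean ± SD, n = 3). The cause was not tested.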

How the results depend on the processing

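The number of members called stayed at 1 (Tnf) for the difference between the responses in every alternative. For IL-4 it was 6 in WT, with 4 to 7 over all alternatives, and 5 in KO, with 4 to 6. For KO against WT in M0 it was 2, and 1 with limma on either log2(TPM + 1) or log2(TPM + 0.1), where Il1b was lost. DESeq2 called Il10 in M0 in addition to Tnf and Il1b (DESeq2 adjusted p = 0.0269 for Il10). Without 1 library it ranged from 1 to 3 in M0 and from 0 to 1 in M2, where Il1b passed without WT M2 replicate 3. The replicate block gave 3 for KO against WT in M0, adding Il10 (adjusted p = 0.0068), and 0 in M2, although the numbers did not pair the genotypes. With the mouse as replicate block, 6 were called for IL-4 in KO, adding Il1b, and no other call changed. Of 681 recomputed fold changes of single members, 632 kept direction and call, 21 lost and 16 gained it and 12 changed sign. For Il18 in M2 they were -0.011 and -0.015 with limma and -0.045 to 0.10 without 1 library. For Il1a, the difference between the responses was 0.054 with limma on log2(TPM + 1) and -0.59 to 0.29 without 1 library, and for Il1b it was -0.21 to 0.61. For Il27 in M0 the range was -0.51 to 0.29. The cause of these changes was not tested. The test of the ratios by mouse number was chosen after seeing the data. Il6, Il1r2 and Il12b had at most 13 reads in a library, and their differences carry wide errors at this depth.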
